A study of Mus musculus with 4 samples.

Results

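Peaks of H1foo, a linker histone of the egg, and of AE4, an antibody against histone H1, were examined at 10 genes of the growing oocyte in mouse embryonic stem cells. The genes were Zp1, Zp2, Zp3, Oosp1, Gdf9, Figla, Nobox, Sohlh1, Mos and Npm2, which are 10 of 21774 protein-coding genes in the RefSeq annotation of the assembled chromosomes. A peak belonged to a gene when it shared at least 1 bp with the gene span extended by 5 kb on either side, here called the gene window. By this rule 22 of the 97795 peaks called for H1foo on assembled chromosomes belonged to these genes, and 7 of the 47449 called for AE4.

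All 4 libraries came from cells of strain 129S4/SvJae that overexpress mouse H1foo fused to GFP, with no further treatment. H1foo was precipitated in 2 libraries with a rabbit polyclonal antibody made in-house, and AE4, a mouse monoclonal antibody, was used in the other 2. Chromatin was prepared by enzymatic digestion, and no library of cells without the transgene was analysed here. Each antibody has a single deposited peak list with no value per library, so there is no replicate error and no test of a difference between the antibodies. Sequencing depth is unknown and the H1foo list is 2.06 times as long as the AE4 list, so a gene without a peak is not shown to lack the protein. The sources used here say neither whether AE4 also recognises H1foo nor whether peaks were called against an input. Peak lists hold no expression, so the cell type could not be checked against its markers.

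Linker histones bind the nucleosome where DNA enters and leaves it and help to compact chromatin. H1foo is the variant of the oocyte and the early embryo, and somatic variants are the usual ones in embryonic stem cells. The zona pellucida is the glycoprotein coat of the egg, built in the mouse from ZP1, ZP2 and ZP3, and ZP2 and ZP3 are needed for a stable coat. Figla is a basic helix-loop-helix transcription factor required for zona gene expression in the mouse, and it acts through E-boxes, the motif CANNTG. Sohlh1 is another factor of that class and Nobox is a homeobox factor, both required for early follicle growth in the mouse. Gdf9 is a growth factor of the TGF-beta family that the oocyte secretes to its granulosa cells, and Oosp1 encodes an oocyte-secreted protein. Mos is the kinase that holds the mature egg in meiotic arrest, and Npm2 is the egg's nucleoplasmin, a histone chaperone.

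All 10 genes had a match by symbol in the RefSeq table. The promoter windows of 5 of them, from 250 bases before to 50 bases after the annotated start, were taken from RefSeq for build GRCm38.p6, the patch release whose chromosomes have the coordinates of mm10. They are of the C57BL/6J reference, not of the 129S4/SvJae cells. The windows of Zp3 and Nobox are shown because an H1foo peak lay over them, and those of Figla and Sohlh1 because they belong to transcription factor genes without any peak. They are read 5′ to 3′ on the strand of the gene, and capitals mark each CANNTG.
Zp3, plus strand, chr5:135979855-135980154: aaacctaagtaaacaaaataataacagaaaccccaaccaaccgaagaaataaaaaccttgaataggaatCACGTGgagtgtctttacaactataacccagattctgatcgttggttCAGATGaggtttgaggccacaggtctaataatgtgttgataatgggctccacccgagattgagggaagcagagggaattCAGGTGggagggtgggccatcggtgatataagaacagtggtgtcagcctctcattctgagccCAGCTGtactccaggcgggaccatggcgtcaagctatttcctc
Nobox, minus strand, chr6:43309505-43309804: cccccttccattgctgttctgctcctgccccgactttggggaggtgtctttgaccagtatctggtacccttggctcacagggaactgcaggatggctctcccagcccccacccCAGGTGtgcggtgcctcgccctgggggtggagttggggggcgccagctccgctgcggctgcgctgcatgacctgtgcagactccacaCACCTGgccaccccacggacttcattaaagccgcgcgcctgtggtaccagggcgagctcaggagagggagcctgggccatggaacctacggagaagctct
Figla, plus strand, chr6:86016941-86017240: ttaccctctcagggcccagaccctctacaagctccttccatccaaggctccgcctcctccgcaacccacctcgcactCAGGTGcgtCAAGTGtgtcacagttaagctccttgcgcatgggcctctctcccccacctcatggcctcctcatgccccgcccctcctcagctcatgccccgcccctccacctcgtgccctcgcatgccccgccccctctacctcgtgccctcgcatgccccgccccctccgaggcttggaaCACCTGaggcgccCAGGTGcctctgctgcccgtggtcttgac
Sohlh1, minus strand, chr2:25847199-25847498: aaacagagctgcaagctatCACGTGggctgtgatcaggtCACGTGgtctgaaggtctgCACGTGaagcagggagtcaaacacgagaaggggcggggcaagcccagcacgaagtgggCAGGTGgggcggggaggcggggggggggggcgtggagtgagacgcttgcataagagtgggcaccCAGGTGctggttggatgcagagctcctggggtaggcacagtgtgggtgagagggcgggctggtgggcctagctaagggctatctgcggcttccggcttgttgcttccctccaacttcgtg

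H1foo peaks were found at 7 of the 10 genes and AE4 peaks at 3. Zp3, Gdf9 and Npm2 had both, Zp1, Zp2, Nobox and Mos had H1foo peaks alone, Figla, Sohlh1 and Oosp1 had neither, and 0 genes had AE4 alone. Over all protein-coding genes, 46.8% had both, 15.8% H1foo alone, 33.2% neither and 4.24% AE4 alone. In total 62.6% of all genes had an H1foo peak in the same window and 51.0% an AE4 peak. The 10 genes are short, with a median span of 6.76 kb against 17.2 kb for all genes, and among the 13159 genes of at most 25 kb these shares were 56.2% and 43.0%. The H1foo count of 7 in 10 was thus close to the background. AE4 was found at 30.0% of the 10 genes, which differs from 43.0% by about 1 gene. With peaks of a score of at least 100 alone, H1foo was left at 3 genes and AE4 at 1, against 35.6% and 16.2% of all genes. The 10 genes are all autosomal, while the shares over other genes, here and below, include chromosomes X and Y. Of the 97795 H1foo peaks 97617 were on autosomes, and shares over autosomal genes alone were not computed.

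**Figure D1:**
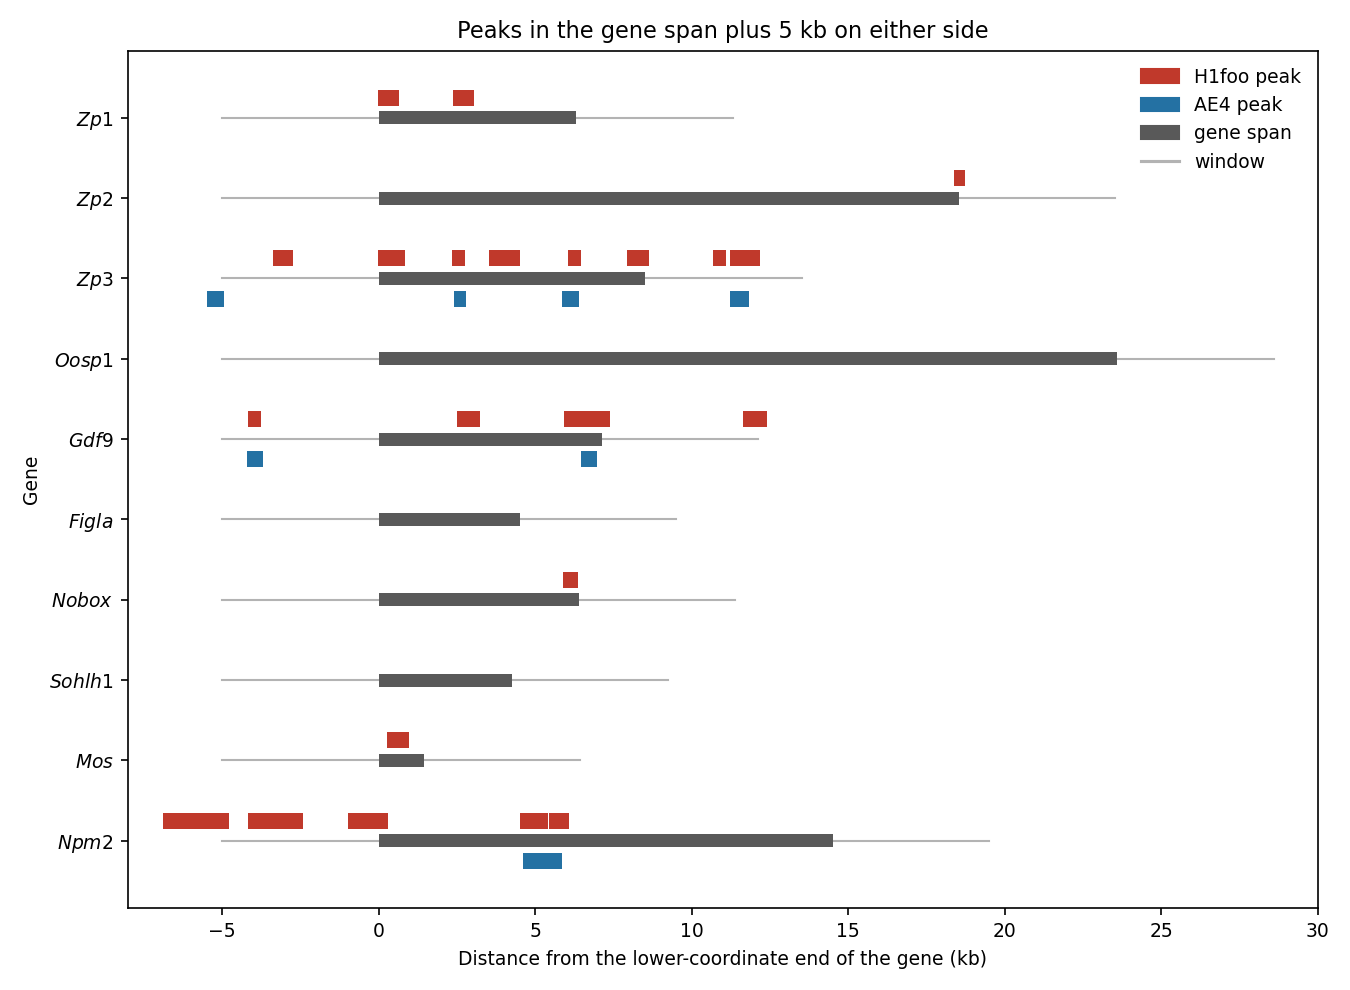
Peaks at the 10 genes, in kb from the lower-coordinate end of each gene. Red bars are H1foo peaks and blue bars AE4 peaks, dark bars are gene spans and grey lines the windows. Zp3 holds 8 H1foo and 4 AE4 peaks, and the windows of Oosp1, Figla and Sohlh1 are empty.

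All 3 zona genes carried H1foo peaks, 11 in all, where 56.2% of genes of at most 25 kb had at least 1. The 4 AE4 peaks of the family lay at Zp3. Zp3, on chromosome 5 from 135980105 to 135988624, had 8 H1foo peaks, the most of the 10 genes. Of genes of at most 25 kb, 12.9% had 8 or more. They covered 29.0% of its window, and AE4 peaks covered 8.56%. The strongest H1foo peak, at 135983618 to 135984607 inside the gene, was 990 bp wide with a score of 140.84 and met no AE4 peak. The score is the authors' own value per peak, with a lowest value of 50 in both lists, and is used here only to rank peaks within a list. One peak lay over each end of Zp3. The one at the start, 135980098 to 135980933, was 836 bp wide and reached 7 bp upstream of the annotated start, with a score of 53.0 that is near the floor of the list. It covered the last 57 bases of the promoter window shown above and 1 of its 4 E-boxes, CAGCTG, which begins 7 bp after the start. The E-box CACGTG that begins at -181 lay outside any peak.

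At Zp3 all 4 AE4 peaks overlapped an H1foo peak, while 3 of the 8 H1foo peaks in the window met an AE4 peak. The AE4 peak at 135982524 to 135982912 shared 337 bp with an H1foo peak inside the gene, and the one at 135985977 to 135986504 shared 357 bp with another. A further AE4 peak, 135991340 to 135991952, lay wholly within an H1foo peak 2711 bp beyond the upper end. The fourth AE4 peak, at 135974624 to 135975160, entered the window with its last 56 bp only, and the H1foo peak that it met lay outside the window. Of the peaks in the Zp3 window, 3 of H1foo and 2 of AE4 were also in the windows of the neighbours Ssc4d or Dtx2.

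Zp1, on chromosome 19 from 10914296 to 10920601, had 2 H1foo peaks and 0 AE4 peaks. One lay over the lower end of the gene, at 10914276 to 10914957, with a width of 682 bp and a score of 81.3, and was also within 5 kb of Prpf19. The other lay inside the gene at 10916672 to 10917341, with a width of 670 bp and a score of 82.91. The nearest AE4 peak was 45.16 kb from Zp1. The annotation used gives no strand for Zp1, Zp2, Gdf9, Mos or Npm2, so their ends are named by coordinate.

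Zp2, on chromosome 7 from 120126762 to 120145291, had a single H1foo peak, over its upper end at 120145141 to 120145482. It was 342 bp wide with a score of 50.16, in percentile 0.64 of the H1foo list. The nearest AE4 peak lay 6.23 kb away, outside the window. The zona genes therefore ranged from 1 weak peak at Zp2 to 8 at Zp3, and the H1foo peak density around them differed in the same order, with 9.0 peaks per Mb near Zp2, 39.0 near Zp1 and 254.0 near Zp3. These are the peaks in 500 kb on either side, the window itself left out.

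Of the secreted factors, Gdf9 had peaks of both lists and Oosp1 had none. Gdf9 lies on chromosome 11 from 53430774 to 53437904 and had 4 H1foo and 2 AE4 peaks. The H1foo peak over its upper end, 53436699 to 53438166, had the highest score of any peak at the 10 genes, 383.54, in percentile 99.2 of the H1foo list, and was 1468 bp wide. An AE4 peak of 507 bp and score 88.41, at 53437237 to 53437743, lay wholly within it. Another H1foo peak inside the gene, 53433265 to 53434010, had a score of 104.51 and no AE4 partner, and was also within 5 kb of the neighbour Uqcrq. A further H1foo peak of 770 bp without an AE4 partner, 53442419 to 53443188 with a score of 92.78, lay 4515 bp beyond the upper end. On the lower side, an H1foo peak of 398 bp at 53426607 to 53427004 lay wholly within an AE4 peak of 526 bp, 3770 bp from the gene. That pair was also within 5 kb of Uqcrq, a gene of respiratory complex III whose span overlaps the lower end of Gdf9, and of Leap2 and Aff4.

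Oosp1, on chromosome 19 from 11667460 to 11691051, had no peak in its window. The nearest H1foo peak was 79.33 kb away and the nearest AE4 peak 264.2 kb away. It lay in an interval of 443.7 kb without H1foo peaks, from 11326638 to 11770384, which also holds its relatives Oosp2 and Oosp3 and a run of Ms4a genes. Its promoter window had 5 E-boxes and 5 CpG dinucleotides.

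Among the transcription factor genes Nobox had 1 H1foo peak, Figla and Sohlh1 had 0, and 0 of the 3 had an AE4 peak. The Nobox peak, at 43309563 to 43310036 of chromosome 6, was 474 bp wide with a score of 56.08, in percentile 18.5 of the list. It lay inside the gene, 36 bp from its upper end, and reached from 9 to 482 bp upstream of the start used for the promoter window, since the RefSeq span includes sequence upstream of that start. It covered 242 of the 300 bases shown above and both E-boxes of the window, CAGGTG at -137 and CACCTG at -50. This peak stood alone. It was the only H1foo peak in 2402 kb, between 42772330 and 45174426, an interval that 18 protein-coding genes touch, 14 of them odorant receptor genes of the Olfr family. The next H1foo peak was 537.2 kb away, and 0.289% of the peaks in the list were as isolated or more so. The nearest AE4 peak to Nobox was 46.66 kb from the gene.

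Figla lay far from any peak. The nearest H1foo peak was 353.0 kb from the gene, on chromosome 6 from 86016494 to 86020996, and the nearest AE4 peak 454.2 kb away. Of all protein-coding genes, 7.94% lay farther from an H1foo peak and 5.05% farther from an AE4 peak. Both shares include genes of chromosomes X and Y, where few H1foo peaks were called. The interval of 927.4 kb without H1foo peaks around Figla touches 20 protein-coding genes, among them Tgfa, Add2, Egr4 and the Nat8 family.

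Sohlh1 was empty in a dense region. It lies on chromosome 2 from 25842995 to 25847248, with 137.0 H1foo and 63.0 AE4 peaks per Mb around it. The nearest H1foo peak was still 31.71 kb away and the nearest AE4 peak 26.82 kb. Among genes of at most 25 kb with 120 to 239 H1foo peaks per Mb around them, 91.1% had an H1foo peak and 74.3% an AE4 peak. The interval of 216.1 kb without H1foo peaks holds Sohlh1 together with lipocalin genes such as Lcn3, Lcn9 and Lcn11, the odorant-binding protein genes Obp2a and Obp2b, and Bmyc. Its promoter window had 14 CpG dinucleotides and 5 E-boxes, 3 of which read CACGTG.

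The genes of the mature egg, Mos and Npm2, both had H1foo peaks, as did 56.2% of genes of at most 25 kb. Mos is an intronless gene in the mouse, with a span of 1448 bp on chromosome 4 from 3870658 to 3872105. Its single H1foo peak, at 3870939 to 3871634, lay wholly inside the gene and was 696 bp wide with a score of 80.52. No other H1foo peak was found for 1220.0 kb on its upper side, and the nearest on its lower side ended 13.84 kb from the gene. The nearest AE4 peak was 13.82 kb away, on the same side.

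Npm2, on chromosome 14 from 70647296 to 70661802, had 5 H1foo peaks and 1 AE4 peak. The 2 widest H1foo peaks at any of the 10 genes were here, 2106 bp at 70640408 to 70642513 with a score of 273.61, and 1779 bp at 70643109 to 70644887 with 246.9. Both lay below the gene and within 5 kb of Fgf17. The first overlapped Fgf17 itself and had 218 bp in the Npm2 window. A peak of 1289 bp, 70646314 to 70647602, lay over the lower end of Npm2 and was also within 5 kb of Fgf17. Inside the gene a pair of adjacent H1foo peaks, 906 bp at 70651813 to 70652718 and 629 bp at 70652743 to 70653371, faced a single AE4 peak of 1245 bp at 70651907 to 70653151. It shared 812 bp with the first and 409 bp with the second. The AE4 peak had a score of 145.49, in percentile 95.8 of its list, the highest AE4 score at the 10 genes. That stretch also lies in Gm52133, a long non-coding RNA gene annotated from 70649526 to 70653529, so it is not a feature of Npm2 alone.

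**Figure D2:**
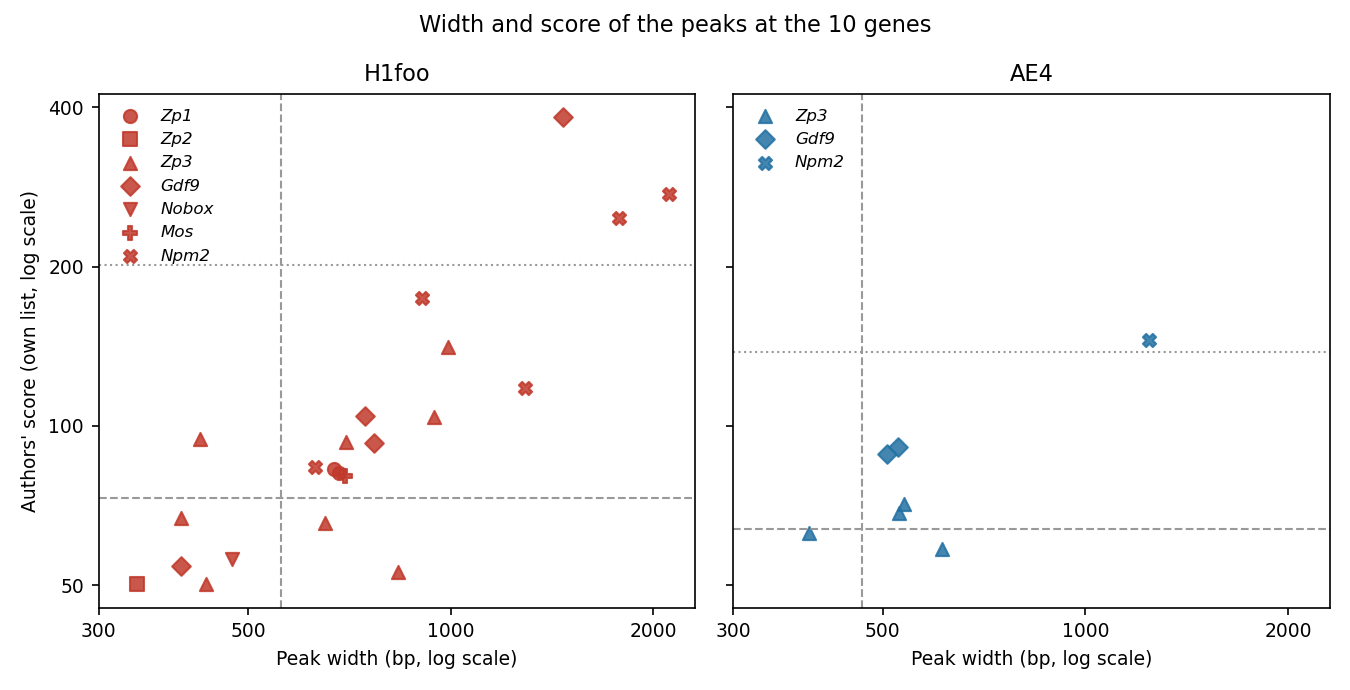
Width in bp against the authors' score for the 22 H1foo peaks (left) and 7 AE4 peaks (right) at the 10 genes, on log axes. Dashed lines are the medians of each whole list, 560 bp and 73.2 for H1foo and 466 bp and 63.8 for AE4, and dotted lines the 95th percentile of the score. The peaks with the highest scores are in the windows of Gdf9 and Npm2. The H1foo peaks of Npm2 with scores of 273.61 and 246.9 lie below the gene and within 5 kb of Fgf17. Scores of the 2 lists are not comparable.

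Peaks at Zp3, Gdf9 and Npm2 made up 17 of the 22 H1foo peaks, or 77.3%. The 22 peaks had a median width of 697.5 bp and a median score of 88.2, against 573 bp and 74.7 for the 74622 H1foo peaks in the window of any protein-coding gene. Of the 22, 16 were wider than the median of the whole list and 3 were in its top 5% of scores. Among these 3, the peaks with scores of 273.61 and 246.9 lay below Npm2 and within 5 kb of Fgf17. The 7 AE4 peaks had a median width of 528 bp and a median score of 71.2, against 475 bp and 64.9 for the 34690 AE4 peaks in gene windows. With so few peaks from few genes these are descriptions.

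Sharing was counted from the side of each list. Among H1foo peaks 7 of 22 (31.8%) met an AE4 peak, against 25.4% of H1foo peaks in all gene windows. Of the AE4 peaks 7 of 7 overlapped an H1foo peak, against 56.3% in all gene windows. With the H1foo list cut to its strongest peaks, as many as AE4 has, 4 of the 7 overlapped one, against 41.9% in all gene windows. These 7 AE4 peaks came from 3 genes, 4 of them from Zp3 in its dense region. The 4 genes with 1 or 2 H1foo peaks had 0 AE4 peaks among them, and the 3 genes with 4 or more each had at least 1. Among genes of at most 25 kb, 39.9% of those with 1 or 2 H1foo peaks had an AE4 peak, and 90.6% of those with 4 or more.

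H1foo peaks lay over a gene end at 5 of the 10 genes, Zp1, Zp2, Zp3, Gdf9 and Npm2, with 6 such peaks in all. Over all protein-coding genes 14.2% had an H1foo peak over an end, 16.9% of genes of at most 25 kb did, and 30.0% of such genes that had any H1foo peak did. AE4 had 0 peaks over an end of the 10 genes, where the share over all genes was 3.44%. This measure was chosen after the positions of the peaks were seen, so the excess for H1foo is a description. By centre, H1foo had 13 peaks in the 95.2 kb of gene spans, or 1.37 per 10 kb, and 8 in the flanks, or 0.8 per 10 kb. Genes of at most 25 kb had 1.62 per 10 kb of span and 1.2 per 10 kb of flank. For AE4 the values at the 10 genes were 0.42 per 10 kb of span and 0.2 per 10 kb of flank, against 0.735 and 0.508.

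Of the promoter windows of all genes, 13.5% were overlapped by an H1foo peak and 2.36% by an AE4 peak. At the 10 genes it was 2 of 5 windows for H1foo, Zp3 and Nobox, and 0 of 5 for AE4. The 2 peaks had low scores, 53.0 and 56.08. Neither remains when the H1foo list is cut to the length of the AE4 list, where the lowest score kept is 74.25. The windows of Zp3 and Nobox differed in base composition, with 46.3% GC and 7 CpG dinucleotides in Zp3 and 65.0% GC and 13 CpG dinucleotides in Nobox. An H1foo peak overlapped 22.8% of all windows with 5 to 9 CpG dinucleotides and 13.2% of those with 10 or more. The uncovered windows spanned a similar range, with 67.0% GC in Figla, 63.3% in Sohlh1 and 49.3% in Oosp1. CANNTG, which reads as the same pattern on both strands, was found from 2 to 5 times in each of the 5 windows, and 69.0% of all 21263 windows hold it. TAATTA and TAATTG, searched on both strands as the elements of homeobox factors such as Nobox, were in 0 of the 5 windows, and 4.53% and 6.83% of all windows hold them. A match is a description of letters only.

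**Figure D3:**
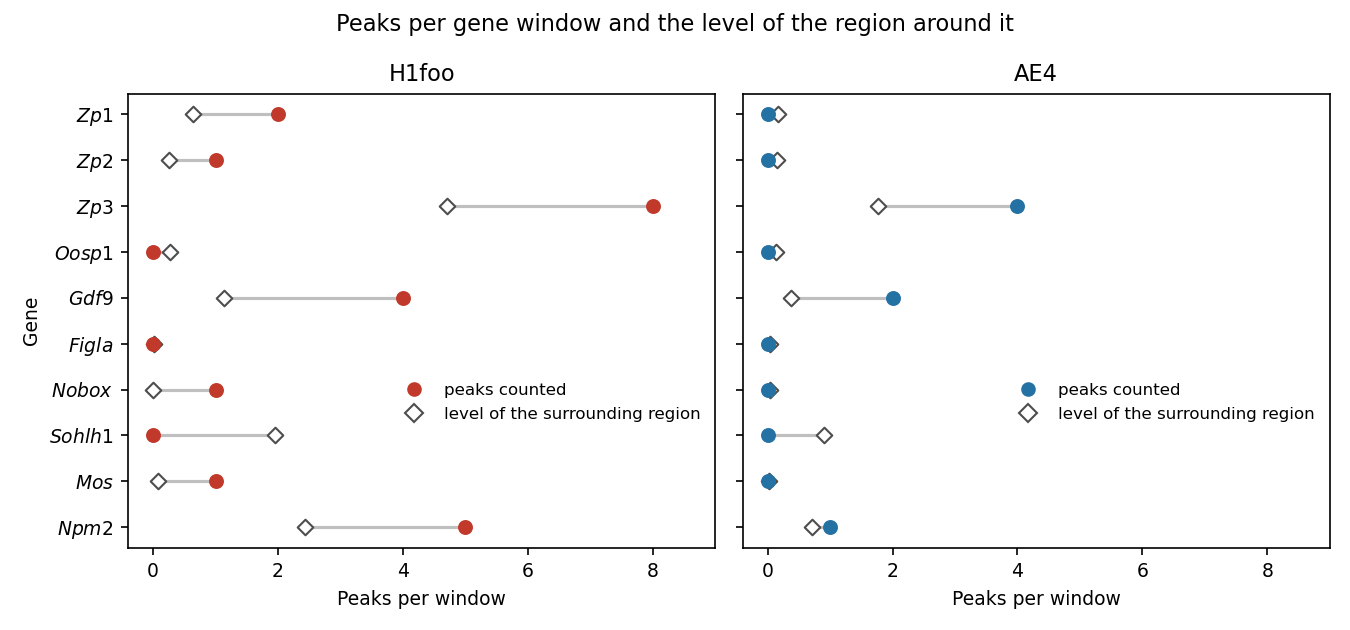
Peaks counted in each gene window (filled circles) and the number that the peak density of the surrounding 500 kb on either side would give a window of that length (open diamonds), for H1foo (left) and AE4 (right). Window counts take any overlap, while the regional density counts peaks by their centre. H1foo counts exceed the regional level at 7 genes and lie below it at the 3 genes without peaks, most of all at Sohlh1 with 0 against 1.95.

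Zp3, Npm2, Gdf9 and Zp1, the genes with more than 1 H1foo peak, had 39.0 to 254.0 H1foo peaks per Mb around them, and of the other genes Sohlh1 alone had more than 9.0. The region around Zp3 would give its window 4.7 H1foo and 1.76 AE4 peaks, and 8 and 4 were counted. The median in its density class was 7 H1foo peaks. Gdf9 had 4 H1foo and 2 AE4 peaks, where its region would give 1.13 and 0.377. Npm2 had 5 and 1 where its region would give 2.43 and 0.711. The median in the density class of Gdf9 and Npm2 was 2 H1foo peaks. Summed over the 10 genes, the counts were 1.92 times the regional level for H1foo and 1.64 times for AE4, and over all genes of at most 25 kb 1.47 times and 1.39 times. In both sets of genes the window counts take any overlap, while the regional level counts peaks by their centre. By centre the 10 windows held 21 H1foo and 6 AE4 peaks, where the regional levels summed to 11.5 and 4.27. Where the regional level is below 1 any peak exceeds it, so the comparison carries little for the genes with 1 peak.

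Zp2, Nobox, Figla, Mos and Oosp1 lay in the sparsest regions, with 0 to 9.0 H1foo peaks per Mb, and 3 of these 5 had an H1foo peak and 0 had an AE4 peak. Genes of at most 25 kb in the lowest tertile of regional H1foo density, at most 18.0 peaks per Mb, had an H1foo peak in 12.5% and an AE4 peak in 6.43% of cases. All 3 of those peaks overlapped the gene itself, as did a peak at 8.47% of the genes of that tertile. The tertile includes genes of chromosome X such as Bmp15, where few H1foo peaks were called, which can lower its shares. The count of 3 rests on 1 peak at each of Zp2, Nobox and Mos, with scores of 50.16, 56.08 and 80.52. With the H1foo list cut to the length of the AE4 list, 1 of the 5 had an H1foo peak, at Mos, against 4.37% of the genes of that tertile, and with scores of at least 100 it was 0 of 5, against 1.83%. In the middle tertile, Zp1, Gdf9 and Npm2 all had an H1foo peak, against 62.8% of genes, and 2 of 3 an AE4 peak, against 43.3%. In the highest tertile, above 123.0 peaks per Mb, Zp3 had both and Sohlh1 neither. Of the genes of that tertile 93.8% had an H1foo peak and 79.7% an AE4 peak.

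**Figure D4:**
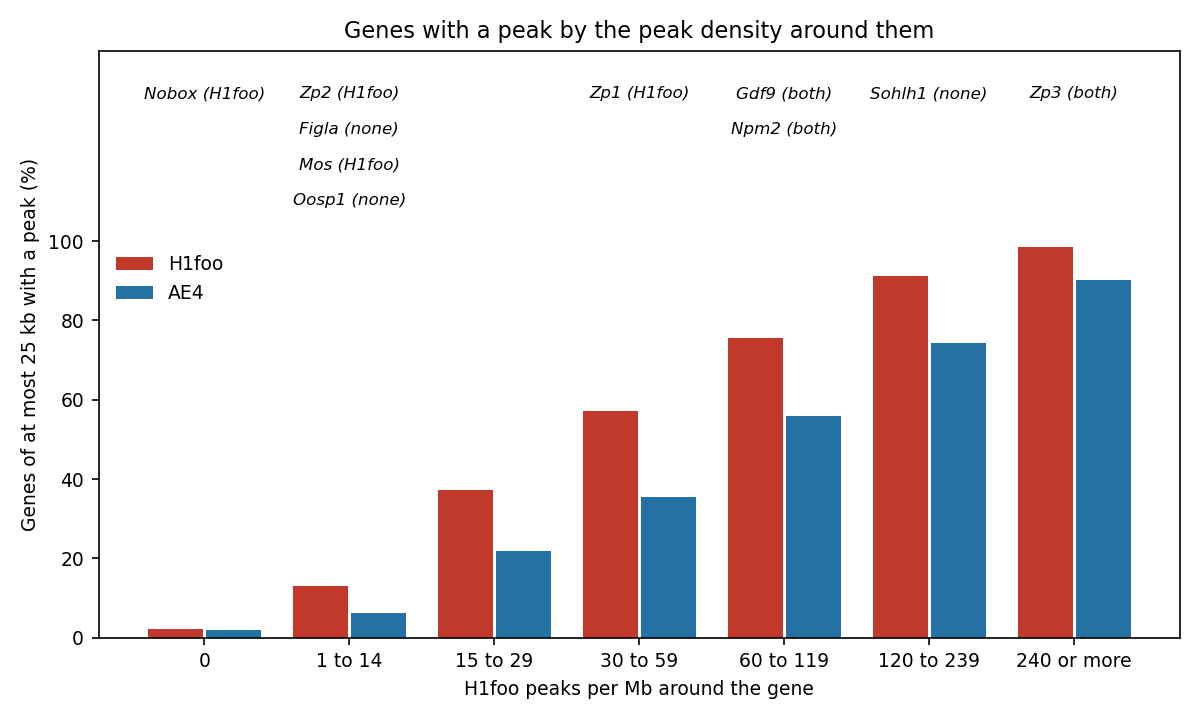
Share of genes of at most 25 kb with an H1foo peak (red) or an AE4 peak (blue) in the window, by the number of H1foo peaks per Mb around the gene. Each of the 10 genes is written above its class with the lists that have a peak there. The H1foo share is 2.18% where the region has 0 peaks, which is the class of Nobox, and 98.6% at 240 or more, the class of Zp3. The class with 0 peaks includes genes of chromosome X, where few H1foo peaks were called, while Nobox is autosomal.

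Other genes of the oocyte were placed beside the 10. Of 29 further genes of oocyte growth and maternal stores, 13 or 44.8% had an H1foo peak and 13 had an AE4 peak, against 62.6% and 51.0% of all genes. Peaks of both lists were at 9 genes and no peak at 12. Over all genes 46.8% had both, 33.2% neither, 15.8% H1foo alone and 4.24% AE4 alone. Both lists had peaks at Foxo3, which restrains the growth of resting follicles (20 H1foo and 5 AE4), Cd9, the egg membrane protein of sperm fusion (20 and 5), the RNA-binding Cpeb1 (5 and 4) and Ybx2 (4 and 2), Kpna7 (8 and 1), Gpr3, the receptor that keeps the oocyte in meiotic arrest (5 and 1), Kitl (3 and 1), and Tcl1 and Astl (2 and 2 each). H1foo alone was at Zfp36l2 (5), Kit (3), Zar1l (2) and Fmn2 (1). AE4 alone, with 1 peak each, was at Zar1, Sohlh2, Taf4b and Pde3a. Neither list had a peak at Bmp15, the partner of Gdf9 on chromosome X, or at Lhx8, Dazl, Oosp2, Oosp3, Obox1, Obox5, Btg4, Wee2, Izumo1r, Ccnb3 and H1f8. Thus the helix-loop-helix partners Sohlh1 and Sohlh2 had 0 H1foo peaks between them, and the secreted partners Gdf9 and Bmp15 had 4 and 0. The absence at Bmp15 is not particular to that gene. Of the 97795 H1foo peaks 97617 lay on autosomes, and the regions around Bmp15 and Ccnb3 on chromosome X had 0.0 per Mb. The median span of the 29 genes, 18.1 kb, was near that of all genes and longer than that of the 10 genes, and a long window gathers more peaks.

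Of 11 genes of the subcortical maternal complex and the Padi family, 8 (72.7%) had an H1foo peak and 7 (63.6%) an AE4 peak, each about 1 gene above the 62.6% and 51.0% of all genes, with medians of 10 and 2 peaks per gene. The 5 Padi genes stand in 1 cluster on chromosome 4 with 300.0 to 376.0 H1foo peaks per Mb around them. Of 12 transcription factors of naive pluripotency, which stem cells express, 9 (75.0%) had an H1foo peak and 5 (41.7%) an AE4 peak, which also lay within 2 genes of the shares over all genes. Their medians were 3 and 0. The 10 oocyte genes had medians of 1 and 0, and all protein-coding genes 2 and 1. None of these differences was tested.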

How the data were processed

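Chromatin immunoprecipitation and sequencing was done on 4 libraries, 2 with an antibody against H1foo and 2 with AE4. Reads were aligned with Bowtie 1.1.2 to mm10, per the submitters' processing notes, and peaks were called with MACS, per the file headers. The authors deposited 1 peak list per antibody, with a score for each peak whose scale is not named. The sources used here do not say how libraries were combined. Positions are given counted from 1, and only the 21 assembled chromosomes were used. Gene spans came from RefSeq on GRCm38.p6, leaving out 113 protein-coding genes on scaffolds. Overlaps were counted with Python 3.11.15 and pandas 2.3.3, and the counting was tested on simulated intervals. No read counts were at hand, so depth, precision and replicate error are unknown. The 10 genes, the other gene lists and the alternatives were chosen with earlier results of these data known. All 10 genes and every gene of the further oocyte list were named. No filter for artefact regions was applied.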

Additional observations from a re-analysis of the deposited data

How the results depend on the processing

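Of 51 values that an alternative could change, over 8 alternatives, 35 stayed within 1.5 times the reported value. With the window cut to 2 kb or to the gene span alone, AE4 peaks numbered 4, all 4 overlapping H1foo. In both cases 7 genes had an H1foo peak and 3 an AE4 peak. The shares of all genes were 59.4% and 46.1% at 2 kb, and 56.1% and 42.7% for the span alone. With 10 kb on either side there were 11 AE4 peaks, 11 H1foo peaks that overlapped an AE4 peak, and Zp2 gained an AE4 peak. H1foo peaks were then at 7 genes and AE4 peaks at 4, against 66.2% and 57.1% of all genes. A score of at least 100 left 8 H1foo peaks at 3 genes, Zp3, Gdf9 and Npm2, where 35.6% of all genes had one, and 1 AE4 peak at 1 gene, Npm2, against 16.2%. It left 1 H1foo peak that overlapped an AE4 peak, 1 AE4 peak that overlapped an H1foo peak, and AE4 peaks at 3 genes of the further oocyte list. With the H1foo list cut to the length of the AE4 list, 5 of the 10 genes had an H1foo peak, against 47.0% of all genes, without Zp2 and Nobox, and 4 AE4 peaks overlapped one. Without peaks that also lay in another gene's window, an alternative chosen after seeing the data, 13 H1foo peaks at 7 genes and 4 AE4 peaks at 3 genes were left. The shares of all genes under that rule were not computed, so these counts of genes have no background beside them. No paired analysis was possible because the lists hold no value per library, and for the same reason no library could be left out. Depth per library is unknown, so genes without a peak are genes where none was called.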

Other observations

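H1f8, the gene that encodes H1foo itself, lies on chromosome 6 from 115944931 to 115950242 and had 0 H1foo and 0 AE4 peaks in its window. The region around it had 115.0 H1foo peaks per Mb, and of genes of at most 25 kb with 60 to 119 per Mb around them 75.7% had an H1foo peak and 56.0% an AE4 peak. Pou5f1, the stem cell factor gene that growing oocytes also express, had 6 H1foo peaks and 0 AE4 peaks, and Zfp36l2 had 5 and 0. Among genes of at most 25 kb with 4 or more H1foo peaks, 90.6% had an AE4 peak. These genes were picked out after their values were seen.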
